A study of Pinus pinaster with 18 samples.

Results

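The transcripts described here are 150 transcripts of maritime pine (Pinus pinaster) whose level was high in the youngest embryos sampled and lower at the next stage, both in somatic embryos grown in culture and in zygotic embryos taken from seeds. Levels are given as CPM, each count divided by the total count of its library and multiplied by 1e6. A transcript had to reach a mean of 5 CPM in the first stage of both embryo types, every first-stage library had to lie above every second-stage library, and the ratio of the first to the second zygotic stage, each as mean CPM + 1, had to be above 1.5. Of 287424 transcripts, 1300 met these conditions, and the 150 with the highest value of the smaller of both first-to-second-stage ratios were taken. The members were thus chosen by their levels in ES1, ES2, PC and EC, the first and second stages, and those levels are given as a description. The third stages, ES3 and C, were not used in the choice.

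Poly(A) RNA was sequenced from 18 libraries in 6 groups of 3. Somatic embryos of the embryogenic line PN519, a single line, were matured in darkness on a medium of 68 g per L sucrose, 9 g per L gellan gum and 80 µM of the hormone abscisic acid (ABA), kept at 24 °C, and were harvested as translucent early embryos (ES1, 4 to 6 weeks), opaque pre-cotyledonary embryos (ES2, 6 to 10 weeks) and cotyledonary embryos (ES3, 12 to 14 weeks). Zygotic embryos came from seeds of 1 orchard and 1 season, as pre-cotyledonary (PC), early cotyledonary (EC) and immature cotyledonary (C) embryos, and received none of this culture treatment. Embryo type, genotype and treatment cannot be told apart. The 15 libraries other than C held 22725467 to 43510184 counts and the C libraries 74949347 to 89590401.

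In conifers the early embryo is a small mass of dividing cells carried on a suspensor, a file of elongated cells that later degenerates, and the cotyledonary embryo has shoot and root poles and has filled with reserves. Cell walls are loosened and remodelled while cells elongate, and enzymes such as pectate lyases, which cut pectin, and xyloglucan endotransglucosylase/hydrolases, which cut and rejoin xyloglucan chains, take part. Apoplastic copper oxidases and cytochrome P450 monooxygenases, the latter a large family with roles in hormone and secondary metabolism, are other groups that occur among the named members.

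Whole embryos were sequenced, so fewer cells of a type and less RNA per cell cannot be told apart in any value below. The libraries carried transcripts of embryo and seed maturation in every group. The 62 late embryogenesis abundant (LEA) and seed maturation transcripts summed to 8818 to 9216 CPM in ES1 and 12390 to 14182 CPM in ES3. In PC they summed to 4134 to 4518 CPM and in C to 4108 to 4504 CPM, with 15 of them at 0 counts in C. The 17 storage and oil body protein transcripts summed to 1106 to 1419 CPM in ES1 and 1022 to 1543 CPM in ES3. Their sums were 342 to 411 CPM in PC and 288 to 318 CPM in C, the lowest of the 6 groups. Transcripts counted in the C libraries and in no other library took 29.0% to 29.4% of the C counts, and the TMM factors, which rescale library totals, were 0.422 to 0.428 in C against 0.824 to 1.44 elsewhere. Of the ES3 libraries, replicate C stood apart, lying below both others by over 1.5 times in 26.7% of the 23118 transcripts kept for testing (above 2 CPM in 6 or more libraries). How far the makeup of the C libraries sets the low C values of the members was not tested, apart from the alternative scalings given with each result.

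The summed level of the 150 transcripts shows the overall course. In ES1 they took 13558, 13407 and 15459 CPM in replicates A, B and C, or 1.41% ± 0.114 (SD, n = 3) of all counts. In ES2 they took 1697, 2441 and 1719 CPM. In ES3 the sums were 1583, 766 and 1170 CPM, so that replicate A lay just under the lowest ES2 library and replicate B was the lowest of the somatic libraries. In zygotic embryos the sums were 4633, 4887 and 3676 CPM in PC and 1151, 1287 and 1212 CPM in EC. In C they were 20.4, 21.4 and 25.4 CPM, below every other library.

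**Figure D1:**
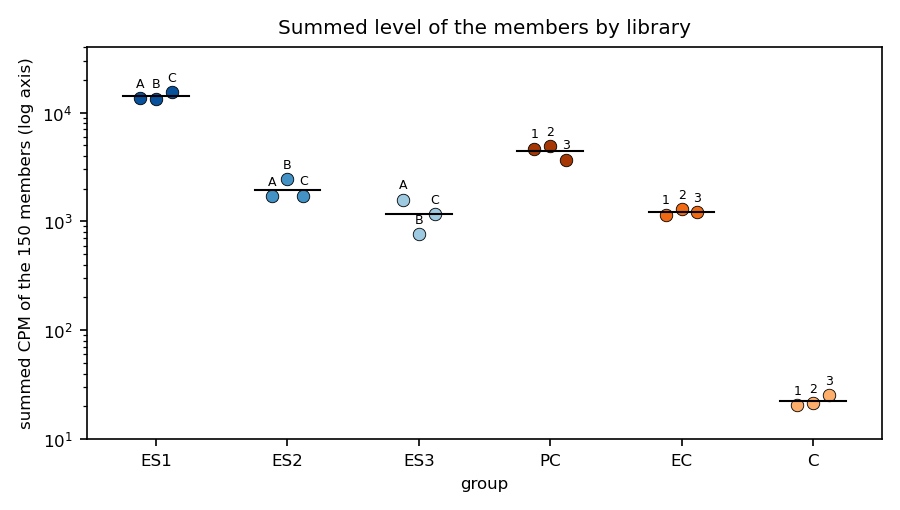
Summed CPM of the 150 members in each library (log axis), 1 point per library with its replicate label, lines at the group means. The rule placed ES1 above ES2 and PC above EC. The C libraries sit between 20.4 and 25.4 CPM, and the ES3 libraries between 766 and 1583 CPM.

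The members differed widely in how strongly each embryo type used them. The ratio of ES1 to PC, each as mean CPM + 1, ran from 0.291 to 59.4 with a median of 2.85. It was above 2 in 98 members, within 2-fold in 45, and below 0.5 in 7. Among the 13921 transcripts with a mean of 5 CPM or more in both groups, 11.3% had a ratio above 2 and 11.6% a ratio below 0.5, with a median of 0.851. The members with the ratio above 2 had a median level of 66.7 CPM in ES1 and 12.7 CPM in PC, and the 7 with the ratio below 0.5 had 6.60 CPM in ES1 and 23.0 CPM in PC. These ratios rest on groups that the choice used and were not tested.

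**Figure D2:**
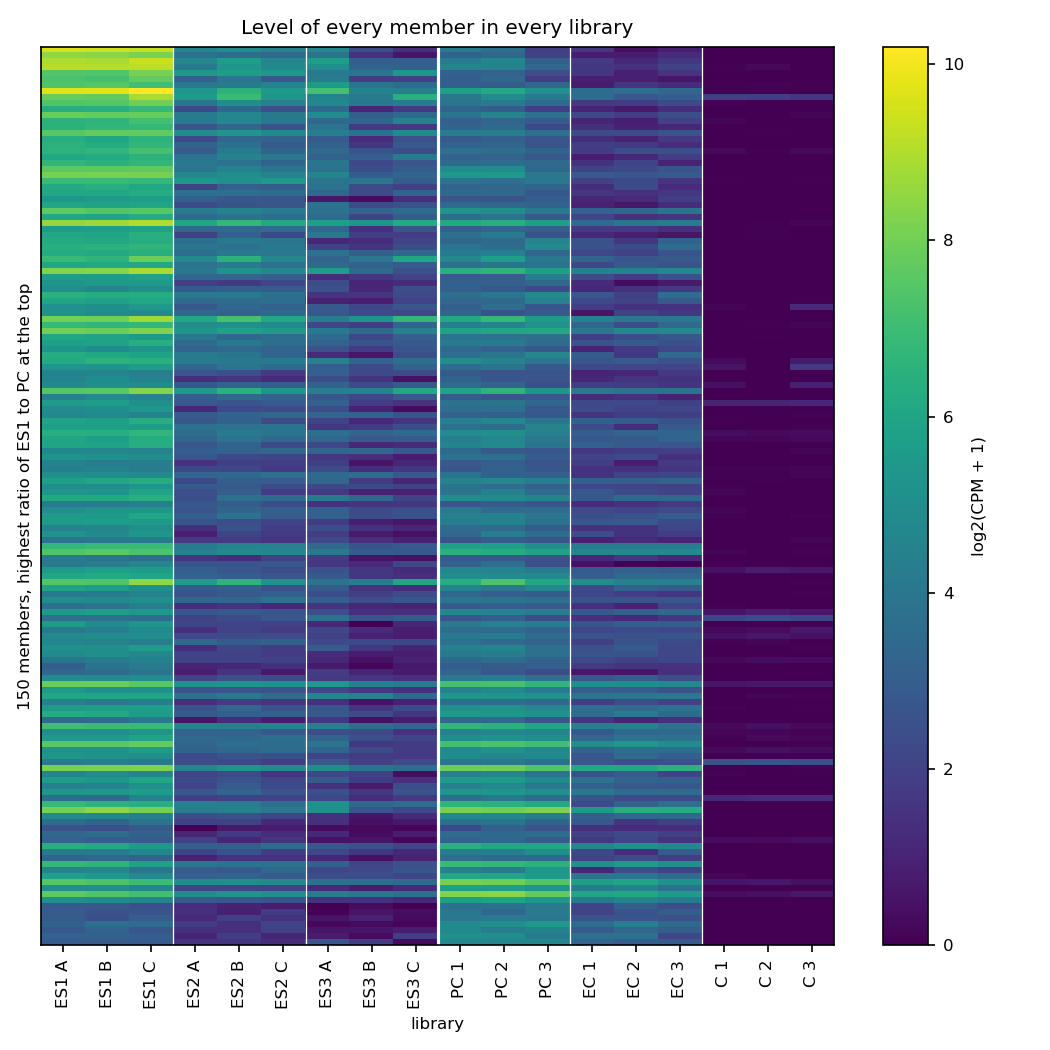
Level of each of the 150 members as log2(CPM + 1) in each of the 18 libraries, with members ordered by the ratio of ES1 to PC. The C columns are close to 0 in nearly all rows, and ES3 A is brighter than ES3 B and C in many of the upper rows.

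Protein names were given for few of these transcripts. Of the 150, 21 were listed in the study's annotation tables, and 13 carried an informative protein name, with 10 different names. The other 137 are given by identifier. Many members may not be separate genes. The 150 identifiers fell into 94 runs in which each identifier lay within 5 of the next, 34 of these runs held 2 or more members, and together those held 90 members. Among 569 pairs of named transcripts with adjacent identifiers, 76.6% shared the same protein name, so that members of a run may be copies or isoforms between which reads were divided, and single values within a run are uncertain.

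The highest value of the rule, 6.93, belonged to ppt_51805, which had no entry in the tables, next to ppt_51806 (multi-copper oxidase type 1 family). It measured 66.1, 61.9 and 84.2 CPM in ES1 and 2.96, 7.85 and 3.90 CPM in ES2. In ES3 it measured 16.0, 2.69 and 2.61 CPM, so the ES3 libraries overlapped those of ES2, with replicate A highest. The zygotic values were 12.6, 17.4 and 4.72 CPM in PC, and 1.17, 0.812 and 0.471 CPM in EC. In C there were 4 counts over the 3 libraries. The members just inside the limit were ppt_96158 (2.39) and ppt_114584 (2.38), and those just outside were ppt_159588 (2.38) and ppt_38711 (2.378).

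Enzymes that act on the cell wall were represented by a pectate lyase and a xyloglucan endotransglucosylase/hydrolase, which differed in the embryo type that held more of them. The pectate lyase ppt_220398 measured 541, 539 and 572 CPM in ES1, then 17.2, 38.4 and 26.2 CPM in ES2 and 33.5, 8.18 and 7.97 CPM in ES3. Its zygotic levels were 23.8, 22.9 and 9.56 CPM in PC, 2.14, 1.73 and 2.99 CPM in EC, and 0.0514, 0.167 and 0.0267 CPM in C. The ES3 libraries overlapped those of ES2, whereas C lay below EC in every library. ES3 exceeded C by 5.91 ± 0.72 (SE) on the log2 scale (edgeR quasi-likelihood test, adjusted p = 2.82e-06).

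The identifiers ppt_220400 and ppt_220401, which follow the pectate lyase closely and carry no name, had the same course. The former measured 772, 701 and 624 CPM in ES1 and 26.9, 4.16 and 1.75 CPM in ES3, and had no count in C. With the floor of 3 counts over the C group, or 0.0124 CPM, its mean ES3 level in plain CPM was at least 884-fold higher than C. The TMM factors of C were the lowest, so this bound and those below would be smaller on the TMM scale. They were not computed on that scale.

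The xyloglucan endotransglucosylase/hydrolase ppt_159091 was a zygotic-rich member. The PC libraries measured 25.9, 24.7 and 24.6 CPM, whereas ES1 held 6.64, 6.60 and 6.56 CPM. It measured 1.88, 1.94 and 1.55 CPM in ES2 and then 5.48, 2.57 and 0.207 CPM in ES3, libraries that lay on both sides of ES2. In C it had 2 counts in all, and ES3 exceeded C by 6.53 ± 1.02 on the log2 scale (edgeR, adjusted p = 3.71e-05). The unnamed member beside it, ppt_159090, was higher in ES1 (mean 38.1 CPM) than in PC (19.4 CPM). Most other transcripts of the same enzyme name did not fall in mean level at the zygotic step. In ppt_169559, for example, the mean went from 1329 CPM in PC to 1408 CPM in EC. In ppt_111493 it went from 12.7 to 3.59 CPM, a change that did not pass the test (edgeR, adjusted p = 0.0837).

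Copper oxidases were 4 members under 3 names, and all were far higher in ES1 than in PC. The L-ascorbate oxidase ppt_137047, an apoplastic enzyme that oxidises ascorbate, measured 486, 467 and 663 CPM in ES1 and 25.6, 50.2 and 24.9 CPM in ES2. In ES3 it measured 51.7, 7.38 and 7.17 CPM. The PC values were 17.0, 23.7 and 7.22 CPM, the EC values 2.35, 1.20 and 2.16 CPM, and no count was found in C. The mean ES3 level in plain CPM was at least 1784-fold higher than the C floor (edgeR with TMM, adjusted p = 1.36e-05). The second transcript of this name, ppt_137042, ran in parallel, at 18.4, 2.48 and 2.87 CPM in ES3.

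The multi-copper oxidase-like transcript ppt_252133 had the highest ES1 level of all members, at 822, 879 and 1170 CPM. It measured 39.9, 92.3 and 45.3 CPM in ES2 and 142, 23.3 and 19.7 CPM in ES3, so that the ES3 mean of 61.6 CPM was above the ES2 mean of 59.2 CPM only through replicate A. In zygotic embryos it measured 53.9, 70.0 and 34.5 CPM in PC and 10.0 to 12.2 CPM in EC, with 1 count in C. The multi-copper oxidase type 1 transcript ppt_51806 measured 81.0, 85.9 and 109 CPM in ES1 and 10.1, 1.06 and 2.34 CPM in ES3, and was at 0 in C.

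Of the 2 named cytochrome P450 members, ppt_55036 (cytochrome P450 78A4) belongs to a subfamily that in Arabidopsis promotes organ growth. It measured 171, 183 and 133 CPM in ES1, 15.2, 17.2 and 21.9 CPM in ES2, and 46.2, 14.0 and 11.2 CPM in ES3. The PC libraries held 7.20, 6.99 and 9.50 CPM, the EC libraries 0.768 to 1.94 CPM, and the C libraries 0.0386 to 0.0781 CPM. ES3 and ES2 overlapped, and ES3 exceeded C by 7.00 ± 0.58 on the log2 scale (edgeR, adjusted p = 5.65e-08). The non-members ppt_161400 and ppt_226206 carry the same name but did not share the low C level. Between EC and C their means rose from 3.95 to 20.9 CPM and from 1.47 to 8.27 CPM. For these transcripts ES3 was lower than C (log2 fold change -1.64 ± 0.25, edgeR, adjusted p = 3.05e-05, and -2.04 ± 0.34, adjusted p = 6.82e-05).

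The other named P450 member, ppt_255784 (cytochrome P450 CYP92A105), measured 92.4, 97.1 and 135 CPM in ES1, 17.8, 26.4 and 17.8 CPM in ES2, and 9.71, 9.88 and 21.8 CPM in ES3. Here replicate C was the highest of the ES3 libraries, unlike in the oxidases. C held 0.129, 0 and 0.0267 CPM, and ES3 exceeded C by 6.50 ± 0.72 (edgeR, adjusted p = 1.04e-06). The UDP-glycosyltransferase ppt_66862, of an enzyme family that attaches sugars to small molecules, measured 186, 213 and 207 CPM in ES1, 30.2, 38.6 and 28.3 CPM in ES2, and 19.9, 13.2 and 28.8 CPM in ES3, with 4 counts in C.

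A run of 7 members, ppt_161390 to ppt_161396, was the longest run and also held the highest zygotic level. None of them is named, and the identifier that follows the run, ppt_161397, is named cytochrome P450 CYP78A141v1. The highest, ppt_161396, measured 306, 332 and 211 CPM in PC and 65.0, 72.1 and 46.8 CPM in EC, and 0.270, 0.368 and 0.587 CPM in C. In somatic embryos it measured 204, 171 and 138 CPM in ES1, 31.9, 37.6 and 30.7 CPM in ES2, and 18.6, 16.6 and 12.8 CPM in ES3, with no overlap between stages. The C means of the 7 members ran from 0 in ppt_161395 to 0.560 CPM in ppt_161393.

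The defence-related members were low in somatic embryos from the start and higher in PC. The defensin-1 transcript ppt_220686, of a family of small antimicrobial peptides, measured 12.4, 13.5 and 17.5 CPM in PC and 3.20, 7.54 and 4.29 CPM in EC. It measured 6.34, 6.17 and 4.62 CPM in ES1, 1.49, 0.959 and 0.785 CPM in ES2, and 0, 0.230 and 0 CPM in ES3, and was at 0 in C. With ES3 and C both this low, the difference between them did not pass the test (log2 fold change 4.75 ± 2.03, edgeR, adjusted p = 0.0531).

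The second defensin-1 transcript, ppt_220689, ran from 27.6, 32.8 and 41.9 CPM in PC to 0.157, 0.230 and 0.119 CPM in ES3, and was also at 0 in C. The lipoxygenase 2 transcripts ppt_230197 and ppt_42993, of the enzyme family that oxidises polyunsaturated fatty acids, measured 9.80 to 17.4 CPM and 15.5 to 17.8 CPM in PC. In ES3 they measured 0.0783 to 0.437 CPM and 0.237 to 0.919 CPM, below every ES2 library, and neither had a count in C.

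**Figure D3:**
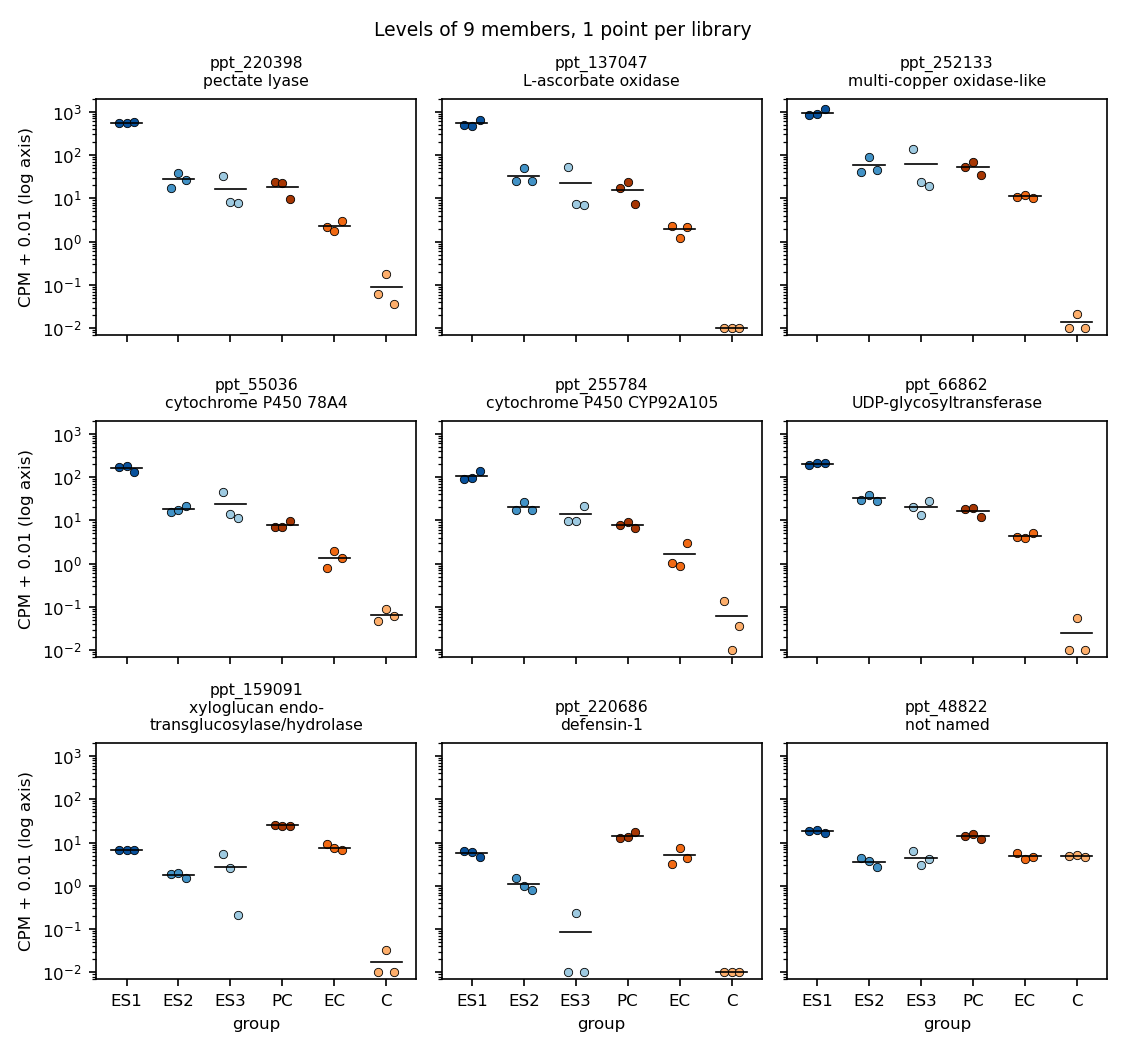
CPM + 0.01 (log axis) of 9 members in each library, 1 point per library in the order of the replicate labels, lines at the group means. The pectate lyase, the copper oxidases and P450 78A4 have replicate A highest in ES3, defensin-1 and xyloglucan endotransglucosylase/hydrolase are higher in PC than in ES1, and ppt_48822 stays near 5 CPM in C.

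The somatic level of most members was lower again in ES3 than in ES2. The median ratio of ES3 to ES2, each as mean CPM + 1, was 0.628, against 0.902 over the 23118 kept transcripts. Every ES3 library lay below every ES2 library in 68 of the 150 members, against 24% of those transcripts, and in none were all ES3 libraries above ES2 (5.47% of kept transcripts). In the other 82 members the groups overlapped. The median ES3 level was 8.78% of the ES1 level, and 149 members had every ES3 library below every ES1 library (42.9% of all kept transcripts). The exception was ppt_50312, which measured 13.4, 12.3 and 11.9 CPM in ES1, 3.29, 4.17 and 5.77 CPM in ES2, and 13.0, 5.29 and 6.99 CPM in ES3. These values describe the course without a test, since ES1 and ES2 chose the members.

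The somatic level at ES3 depended on the library. In 73 members replicate A was over 1.5 times both other ES3 libraries, against 4.07% of all kept transcripts, and the pectate lyase, the oxidases and P450 78A4 were among them. In 19 members replicate C was over 1.5 times both others, against 9.16% of kept transcripts, and CYP92A105 was one of them. Of the 5 members with the largest ES3-to-C difference, 4 had their highest ES3 value in replicate C, and ppt_137047 had it in replicate A. With 1 library fewer such a count can only stay or rise. Without replicate A, ES3 lay below ES2 in 117 members (28.2% of kept transcripts), without B in 68 (29.6%) and without C in 79 (32.8%). In the PC group, 36 members were lower in replicate 3 than in both others by over 1.5 times (5.52% of kept transcripts), ppt_220398 and ppt_137047 among them.

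The zygotic level of nearly all members was close to 0 in C. Every C library lay below every EC library in 147 members, but this was also true of 82.9% of kept transcripts. C lay below PC in this way in 149 members, against 79.8%. The median ratio of C to EC, each as mean CPM + 1, was 0.200 against 0.322 over kept transcripts. The added 1 CPM limits how low this ratio can go at the EC level of the members. Without it the median C level of the members was 0.0789% of EC, a value not given here for kept transcripts. The depth of the C level differed from that of kept transcripts more than the direction did. The choice required low EC against PC, and the median EC level was 4.38 CPM in members against 10.5 CPM in kept transcripts. Shares under a fixed CPM in C may thus partly follow from the choice, and transcripts of equal EC level were not compared. Mean C was under 1 CPM in 145 members (96.7%, against 34.5% of kept transcripts) and under 0.1 CPM in 126 (84.0% against 12.4%). In 67 members (44.7% against 4.72%) no count was found in the 3 C libraries among 242342218 counts, which allows a level of up to 0.0124 CPM. In ES3 no member was at 0 in all libraries, and 16 had a mean under 1 CPM.

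**Figure D4:**
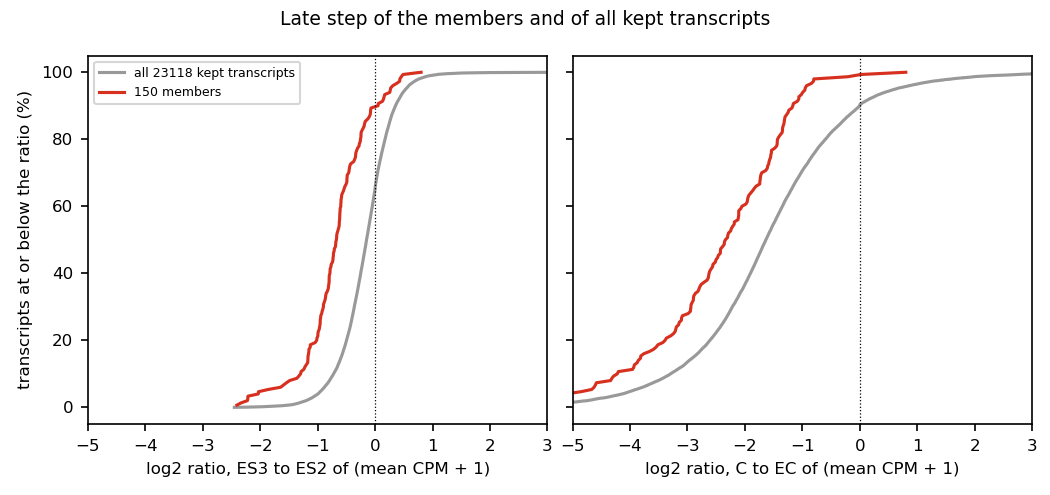
Cumulative share of transcripts (%) by the log2 ratio of ES3 to ES2 and of C to EC, each as mean CPM + 1, for the 150 members and for all 23118 kept transcripts. The curve of the members lies to the left of that of all kept transcripts in both panels, with median ratios of 0.628 and 0.200 against 0.902 and 0.322. The added 1 CPM limits how low the ratios of transcripts with low levels can go.

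The values of neighbouring identifiers were examined beside the low C values. A transcript counted in C alone at over 1 CPM lay within 5 identifiers of 71 members (47.3%) and of 52.5% of kept transcripts. The 79 members without such a neighbour had a median C level of 0.00857 CPM, and 75 of them were under 1 CPM in C. Neighbours were taken by identifier alone, and of 137783 transcripts counted in C alone only the 32523 above 1 CPM were used. The 79 may thus have related transcripts that were missed, and the source of the low C values was not tested.

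Of the 83 members with counts in C, 24 reached 0.1 CPM and 5 reached 1 CPM. The highest was that of ppt_48822, with 4.85, 5.28 and 4.68 CPM in C against 5.74, 4.24 and 4.57 CPM in EC, groups that overlapped. Only ppt_50312 had every C library above every EC library (5.89% of kept transcripts), at 3.39, 4.23 and 3.34 CPM against 1.70, 1.26 and 2.05 CPM. It was also the member with the highest ES3-to-ES2 ratio (1.74). Next came ppt_96158 with 2.78, 2.63 and 1.96 CPM in C, ppt_211243 with 1.28, 1.33 and 1.36 CPM, and ppt_38597 with a mean of 1.10 CPM.

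ES3 and C, the cotyledonary stages of both embryo types, were compared directly. Neither group was used in the choice of the members, but the stages before them were. The members' median levels were 48.6 CPM in ES1, 15.5 CPM in PC and 4.38 CPM in EC, against 10.9, 10.9 and 10.5 CPM over kept transcripts. How far ES3 above C follows from these levels was not tested. In 136 of 150 members ES3 was higher than C by the edgeR test (more than 1 on the log2 scale, at an adjusted p below 0.05), against 29.9% of all kept transcripts. In 2 members ES3 was lower, against 15.1%, and 12 did not pass. The median log2 fold change was 7.71 in the members and 0.19 over all kept transcripts. In plain CPM, with C at no less than the floor of 3 counts, the median log2 ratio of the members was 7.43. That value is not on the scale of 7.71, since with library totals the median of all kept transcripts was 1.84. The ratio with the floor was not computed on the TMM scale. Of the 136, 70 had counts in C. Counted as 1 member per run of identifiers, a choice made after seeing the data, 86 of 94 were higher in ES3.

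All 150 members passed the low-value filter in the ES1 and PC libraries, where the rule required them to be high, and 30 of them would not have passed on the other 12 libraries. The comparison of ES3 and C is not given without these 30. Scaling moved the median log2 fold change of all kept transcripts in this comparison from 0.19 with TMM to 1.34 with the totals of the kept transcripts and to 1.84 with the total counts of the libraries, the totals used for CPM. On these scales 146 and 147 members were higher in ES3, against 60.5% and 75.8% of kept transcripts, and 0 were lower. The share of the members had little room to rise, since 136 were already higher with TMM. The distance between members and kept transcripts was thus smaller on these scales than with TMM.

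The largest differences were found in members with substantial ES3 levels and no count in C. The transcript ppt_81729 measured 18.5, 37.4 and 106 CPM in ES3. Its mean in plain CPM was at least 4361-fold above the C floor (edgeR with TMM, adjusted p = 1.23e-06). This transcript measured 261, 247 and 425 CPM in ES1, 69.0, 149 and 66.8 CPM in ES2, and 72.9, 110 and 44.1 CPM in PC. The transcripts ppt_156019 and ppt_81721 shared this pattern, with 19.4, 23.2 and 67.3 CPM and 8.48, 15.6 and 61.9 CPM in ES3. The transcript ppt_102014 measured 17.9, 14.9 and 42.0 CPM in ES3 and only 7.69, 8.58 and 4.34 CPM in PC. In all 4, replicate C was the highest ES3 library by over 1.5 times. The fifth was the L-ascorbate oxidase ppt_137047.

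The members with ES3 lower than C were ppt_48822 and ppt_38712. The former measured 6.42, 2.96 and 4.06 CPM in ES3, close to its plain C values of 4.68 to 5.28 CPM, and its log2 fold change with TMM scaling was -1.78 ± 0.25 (edgeR, adjusted p = 1.57e-05). With the totals of the kept transcripts it was -0.64, with the library totals -0.14, and neither passed. The latter measured 0.418, 0.506 and 0.119 CPM in ES3 and 0.270, 0.234 and 0.293 CPM in C, and its call (log2 fold change -1.26 ± 0.45, adjusted p = 0.0221) was also lost with both kinds of totals, the library totals turning it to 0.41, and without ES3 replicate C, at -0.94, and without C replicate 3, at -1.19. The smallest positive differences that passed were 2.35 in ppt_85539, 2.57 in ppt_211248 and 2.58 in ppt_96158.

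The 14 members not higher in ES3 lay in 10 runs, and 12 of them had a C level of 0.1 CPM or more. Among the 24 members with such a C level, 12 were higher in ES3.

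The members were also set beside keyword lists of named transcripts, of which the Cell wall, Defence proteins and Cytochrome P450 lists held 2 members each and the other 11 lists none. Over all 14 lists, 12 of 928 kept transcripts were lower at the first step of both embryo types, members included. In the Cytochrome P450 list, 7 of 35 kept transcripts were lower in ES2 than in ES1 (9.6% of all kept transcripts) and 8 were lower in EC than in PC (2.25%). Of these, 6 were lower at both steps (1.42% of kept transcripts). The members ppt_55036 and ppt_255784, chosen on these steps, are 2 of them. The others are 4 non-members of the CYP92A run of ppt_255784, ppt_255780, ppt_255782, ppt_255783 and ppt_255785, whose PC means of 3.03 to 3.32 CPM were under the limit of 5. In ppt_255783 the mean level went from 133 CPM in ES1 to 29.3 CPM in ES2 (log2 fold change -1.98 ± 0.37, edgeR, adjusted p = 9.55e-04) and from 3.18 CPM in PC to 0.658 CPM in EC (-2.12 ± 0.45, adjusted p = 0.00565). These 4 and ppt_255784 have neighbouring identifiers and may share reads, so they count as 1 run.

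In the Defence proteins list, 13 of 155 fell at each first step, against 9.6% of kept transcripts at the somatic and 2.25% at the zygotic step, and 3 fell at both, near the 1.42% of all kept transcripts. These were the defensin-1 member ppt_220689, a PR-1 pathogenesis-related transcript (ppt_204059) and a disease resistance protein transcript (ppt_222098, 153 to 26.2 CPM in somatic and 9.45 to 3.67 CPM in zygotic means). In the Cell wall list, 8 of 67 fell from ES1 to ES2 and 7 from PC to EC, and the only one lower at both was the pectate lyase, a member chosen on these steps. DESeq2 called 25 Defence and 13 Cell wall transcripts lower in EC. Its share over all kept transcripts at this step is not given here, so these counts cannot be set against the 2.25% of edgeR.

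The lists of dividing cells held no member, although many of their transcripts met the conditions of the rule with smaller ratios. These were 48 of the 79 kept DNA replication and repair transcripts and 28 of the 59 of Mitosis and cytokinesis, against 5.62% of all kept transcripts, with rule values up to 1.95 and 1.99 against the limit of 2.38. Of the 79, 42 were lower in ES2 than in ES1, and none in EC than in PC by edgeR at the fold threshold, with 44 lower at an unadjusted p under 0.05 and 0 by DESeq2. Their summed level was 2352 to 2728 CPM in ES1 and 1148 to 1305 CPM in ES2, 5409 to 5907 CPM in PC and 3037 to 3718 CPM in EC, and 169 to 177 CPM in C. The summed level of this list was lower in ES2 than in ES1, in EC than in PC and in C than in EC, as was that of the members. Its part in the members' values was not tested.

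At the late step, 42 of 928 kept transcripts of all 14 lists were lower in both ES3 than ES2 and C than EC, against 2.49% of all kept transcripts. The Cell wall list had 7 lower in ES3 (2.72% of kept transcripts) and 45 of 67 lower in C (29%), and the Defence proteins list 6 and 98 of 155. The Cell wall counts include neighbouring identifiers of the same name, such as the polygalacturonases ppt_107087 and ppt_107092, and were not reduced to 1 per run. The count of 42 was 27 without ES2 replicate A or ES3 replicate B, 69 without ES3 replicate C, 81 with the totals of the kept transcripts and 13 with only the groups compared. Against C, ES3 was higher in 50 of the 67 Cell wall, 126 of the 155 Defence proteins and 20 of the 35 Cytochrome P450 transcripts (29.9% of kept transcripts) and lower in 1, 3 and 10 (15.1%). With the library totals none of these was lower. In the Cytochrome P450 list, 15 transcripts were higher and 9 lower in C than in EC.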

How the data were processed

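RNA-seq libraries of 18 embryo samples were analysed. According to the study's methods, the authors cleaned reads, extended a reference transcriptome by Trinity assembly, and mapped reads with BWA, and the deposited table holds raw counts per transcript, without normalisation. Counting of strand and of reads shared by near-identical transcripts is not given in the sources used here. Samples were grouped by their labels.

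Members were chosen from CPM over the deposited counts. The members and the gene lists were chosen with earlier results of these data known, and the 14 lists match protein names in the study's annotation tables by keyword. Named members are the 10 with the highest rule value, 1 per informative protein name, the 5 largest and 5 most negative log2 fold changes of ES3 against C among those called, and those near the limit of 150. Others named for their C or ES3 values, or as neighbours in a run, were picked after their values were seen.

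Counts were tested with edgeR 4.0.16 (R 4.3.3) by the quasi-likelihood test with TMM normalisation and Benjamini-Hochberg adjustment, in 1 fit of all 18 libraries and 6 groups. The fit held the 23118 transcripts that exceeded 2 CPM in 6 or more libraries. A call required a change of over 1 on the log2 scale in either direction at an adjusted p below 0.05. DESeq2 1.42.0, other scalings and filters, and leaving out each replicate were alternatives. Scripts were tested on simulated data. The study states that samples were independent biological samples. Replicates differed by more than counting noise. The 0-count floors cover counting error only.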

Additional observations from a re-analysis of the deposited data

How the results depend on the processing

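ES3 exceeded C in 134 to 147 of the 150 members under all alternatives, and in 135 to 139 without single replicates. DESeq2 gave no adjusted p for 2 members. The count with ES3 lower, 2, was 0 with the totals of the kept transcripts and with those of the libraries (an alternative added after seeing the data, which turned ppt_38712 from -1.26 to 0.41), 1 with only the groups compared and 1 to 3 without single replicates. The median log2 ratio of C to EC, -2.32, was -1.94 with TMM-scaled CPM, -1.86 with DESeq2 size factors, -3.10 with a pseudocount of 0.5, -0.87 with a pseudocount of 5 and -2.33 to -2.29 without single C replicates. That of ES3 to ES2, -0.67, ran from -0.95 to -0.46 without single ES3 replicates. Members with all ES3 below all ES2 libraries numbered 68 to 117 without single ES3 replicates, where such counts cannot fall (28.2% to 32.8% of kept transcripts). A minimum of 20 CPM in the rule kept 51 of the 150 members, TMM-scaled CPM 124 and a pseudocount of 5 in the rule 103.

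Listed transcripts lower at both first steps, 12, numbered 83 without a fold threshold, 20 with totals of the kept transcripts, 19 with library totals, 20 with DESeq2 and 8 to 13 without single replicates. Those lower at both late steps, 42, numbered 84 without a fold threshold, 81 with totals of the kept transcripts, 82 with library totals, 13 with only the groups compared and 27 to 69 without single replicates, 27 without ES2 replicate A or ES3 replicate B and 69 without ES3 replicate C. The causes were not tested. With a replicate block of letters within somatic and numbers within zygotic embryos the counts were 10 and 35. Deviations of same-labelled libraries correlated at -0.43 to 0.42, with both signs in somatic and in zygotic embryos. With 3 libraries per group these values cannot decide whether the labels mark a shared source. ES3 and C share no labels and were not blocked.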
